A study of Mus musculus with 12 samples.

Results

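Haemoglobin and erythroid transcripts were measured in 12 mouse hearts by bulk RNA sequencing. The genes were chosen by symbol alone, as those whose symbol begins with Hba- or Hbb- together with Alas2 and Slc4a1, and 10 of the 19308 genes in the count table met this rule. No measured value entered the rule, although these genes were taken up with earlier results of the same hearts known. Of the 10 genes, 6 (Hba-a1, Hba-a2, Hbb-bs, Hbb-bt, Alas2 and Slc4a1) passed the filter on low counts, as did 14094 genes in all. The other 4 (Hbb-b1, Hbb-b2, Hbb-bh2 and Hba-x) did not pass and entered no test.

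The study crossed genotype with pressure overload. Wild type (WT) mice and mice without functional Fabp3 (F3-KO), which encodes a fatty acid binding protein of heart muscle, both on the C57BL/6 strain, underwent transverse aortic constriction (TAC) or a sham operation at 8 weeks of age. TAC narrows the aortic arch with a suture and so raises the load on the left ventricle. Hearts were frozen 1 week after surgery, with 3 hearts in each of the WT sham, F3-KO sham, WT TAC and F3-KO TAC groups, stated to be independent biological replicates. The knockout was made by CRISPR-Cas9 and is carried in every cell of the mouse, red cell precursors included. The sources used here do not say whether the hearts taken for RNA were flushed of blood, or which part of the heart was taken.

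Haemoglobin carries oxygen in red cells as a tetramer of alpha chains, encoded in the mouse by Hba-a1 and Hba-a2, and beta chains, encoded in C57BL/6 mice by Hbb-bs and Hbb-bt. Alas2 encodes the erythroid form of the enzyme that starts haem synthesis, and Slc4a1 encodes band 3, the anion exchanger of the red cell membrane. Mature red cells of mammals have no nucleus, but young ones (reticulocytes) keep globin mRNA for a time after leaving the marrow, so that these transcripts in a solid organ are commonly read as a measure of the blood it holds. Heart muscle has its own oxygen-binding globin, myoglobin, encoded by Mb.

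The promoters of the 5 genes that passed the filter and could be matched are shown as background. Their part in the levels of these genes over the hearts was not tested. Each sequence is the RefSeq window of 130 bases before the annotated start in GRCm38.p6, written 5′ to 3′ on the strand of the gene. Capitals mark 4 short motifs read on either strand. They are the CACCC box of erythroid promoters, the CAAT box searched as CCAAT, the TATA box searched as TATAA, and the GATA factor motif searched as GATAA. No matches overlapped in the windows shown.
Hba-a1, chr11:32283542-32283671, plus strand: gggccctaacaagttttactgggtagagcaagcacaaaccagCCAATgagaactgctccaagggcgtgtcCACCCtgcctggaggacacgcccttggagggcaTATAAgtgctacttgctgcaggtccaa
Hba-a2, chr11:32296362-32296491, plus strand: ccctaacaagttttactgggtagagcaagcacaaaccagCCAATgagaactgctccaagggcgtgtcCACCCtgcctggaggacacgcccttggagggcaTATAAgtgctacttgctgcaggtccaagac
Hbb-bs, chr7:103827929-103828058, minus strand: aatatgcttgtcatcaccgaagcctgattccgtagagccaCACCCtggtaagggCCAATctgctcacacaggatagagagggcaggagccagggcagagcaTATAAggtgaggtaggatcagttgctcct
Hbb-bt, chr7:103813924-103814053, minus strand: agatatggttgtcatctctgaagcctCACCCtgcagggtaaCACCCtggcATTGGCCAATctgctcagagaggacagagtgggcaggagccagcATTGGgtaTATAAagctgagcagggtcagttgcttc
Alas2, chrX:150547287-150547416, plus strand: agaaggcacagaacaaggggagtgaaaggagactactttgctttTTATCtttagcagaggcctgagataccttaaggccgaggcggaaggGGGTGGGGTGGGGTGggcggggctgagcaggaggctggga

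The 4 globin windows shown each held a CACCC box with a CAAT box and a TATA box. The windows of Hba-x and Hbb-bh2, which are not shown, did not hold the full set. The set was found together in 0.89% of 27025 promoter windows of this length. Separately, the CACCC box was found in 33.2% of those windows, the CAAT box in 23.2%, the TATA box in 13.2% and the GATA motif in 11.7%. The Alas2 window held 3 CACCC boxes and 1 GATA motif, all read on the other strand. These are matches of letters, not binding sites. Over stretches longer than the windows shown, the Hba-a1 and Hba-a2 promoters were identical in the 247 bases aligned with a shift of 3 bases. Those of Hbb-bs and Hbb-bt, also over a longer stretch, shared 51.0% of 249 bases without gaps. Within the windows shown, a CACCC box, a CAAT box and the TATA box began at -90, -76 and -29 in Hbb-bs. In Hbb-bt, beside further matches, they began at nearly the same places, -89, -75 and -28. The share of like bases within the windows alone was not tested.

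The paired copies were also nearly the same in their coding sequence, which limits how far the counts of each copy can be taken apart. The open reading frames of Hba-a1 and Hba-a2 have 429 bases each and differ by C381T, counted from the first base of the start codon, with the Hba-a1 base first. Those of Hbb-bs and Hbb-bt have 444 bases each and differ by C417T, with the Hbb-bs base first. Of all stretches of 50 bases in the Hba-a1 transcript, 67.54% were also present in Hba-a2, and 65.8% of those in Hbb-bs were present in Hbb-bt. No such stretch was shared between Hba-a1 and Hbb-bs. The level of each single copy is therefore uncertain, while the sum of the alpha genes and the sum of the beta genes are not affected by reads moved within a pair.

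The libraries held 10424334 to 14372011 counts. Fabp3 itself was at 1001 to 1142 CPM (counts scaled to library size with TMM factors) in the 6 F3-KO hearts and at 2116 to 3061 CPM in the 6 WT hearts, so that no F3-KO heart overlapped a WT heart. Replicates of a group differed far beyond counting error in all 12 pairs (chi-square per degree of freedom 9.95 to 83.8), and none was a repeat of another. Markers of ventricular muscle summed to 57040 to 98333 CPM over the 12 hearts.

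The alpha globin transcripts were abundant in every heart and spread widely within the groups. Hba-a1 was at 556, 197 and 413 CPM in WT sham replicates 1 to 3 and at 1284, 367 and 1635 CPM in F3-KO sham. It was at 1334, 600.3 and 116 CPM in WT TAC and at 279.9, 275 and 129 CPM in F3-KO TAC. The F3-KO TAC hearts all lay under the 3 F3-KO sham hearts, while the WT TAC hearts covered nearly the whole range of the study. The mean was 388 ± 180.5 CPM in WT sham against 1095 ± 654 in F3-KO sham (SD, n = 3). After TAC it was 683 ± 614 CPM in WT hearts and 228 ± 85.7 in F3-KO hearts.

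Hba-a2, the other adult alpha gene, gave much the same picture. Its levels were 449.6, 155 and 574 CPM in WT sham and 932, 255 and 1210.0 CPM in F3-KO sham. They were 1047, 537 and 78.2 CPM in WT TAC and 251, 206 and 98.4 CPM in F3-KO TAC. The order of the hearts was close to that for Hba-a1, and the F3-KO TAC and F3-KO sham groups again did not overlap, by a narrow margin (251 against 255 CPM).

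Hbb-bs, the more abundant adult beta gene, was at 661, 239 and 574 CPM in WT sham and at 1249, 370.1 and 1559 CPM in F3-KO sham. It was at 1579, 774 and 118 CPM in WT TAC and at 328, 321 and 132 CPM in F3-KO TAC. The highest and the lowest heart of the study were thus both WT TAC hearts. Hbb-bt, the minor adult beta gene, was at 75.4, 30.6 and 62.2 CPM in WT sham and at 189.8, 60.2 and 250.01 CPM in F3-KO sham. After TAC it was at 215, 111 and 5.502 CPM in WT hearts and at 30.7, 37.7 and 15.1 CPM in F3-KO hearts. Its range over the 12 hearts, 45.4-fold, was wider than the 13.3-fold range of Hbb-bs, 14.2-fold of Hba-a1 and 15.47-fold of Hba-a2.

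Alas2 followed the globins at a lower level. It was at 21.0, 7.74 and 22.0 CPM in WT sham and at 48.4, 14.8 and 61.5 CPM in F3-KO sham. It was at 71.0, 31.1 and 3.18 CPM in WT TAC and at 11.2, 11.8 and 4.69 CPM in F3-KO TAC. The highest heart was WT TAC replicate 1 and the lowest WT TAC replicate 3, a range of 22.3-fold.

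Slc4a1 was the rarest of the 6 genes. Its estimated counts were 9, 5 and 12 in WT sham against 86, 23 and 160 in F3-KO sham. After TAC they were 63, 9 and 0 in WT hearts and 8, 12 and 2 in F3-KO hearts. In CPM the highest heart, F3-KO sham replicate 3, reached 14.7, and group means were 0.771 ± 0.276, 7.93 ± 6.37, 1.91 ± 2.65 and 0.512 ± 0.311 CPM in the same order of groups (SD, n = 3). All 3 F3-KO sham hearts lay above all 3 WT sham and all 3 F3-KO TAC hearts. Several hearts held so few counts that counting error alone was large.

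**Figure D1:**
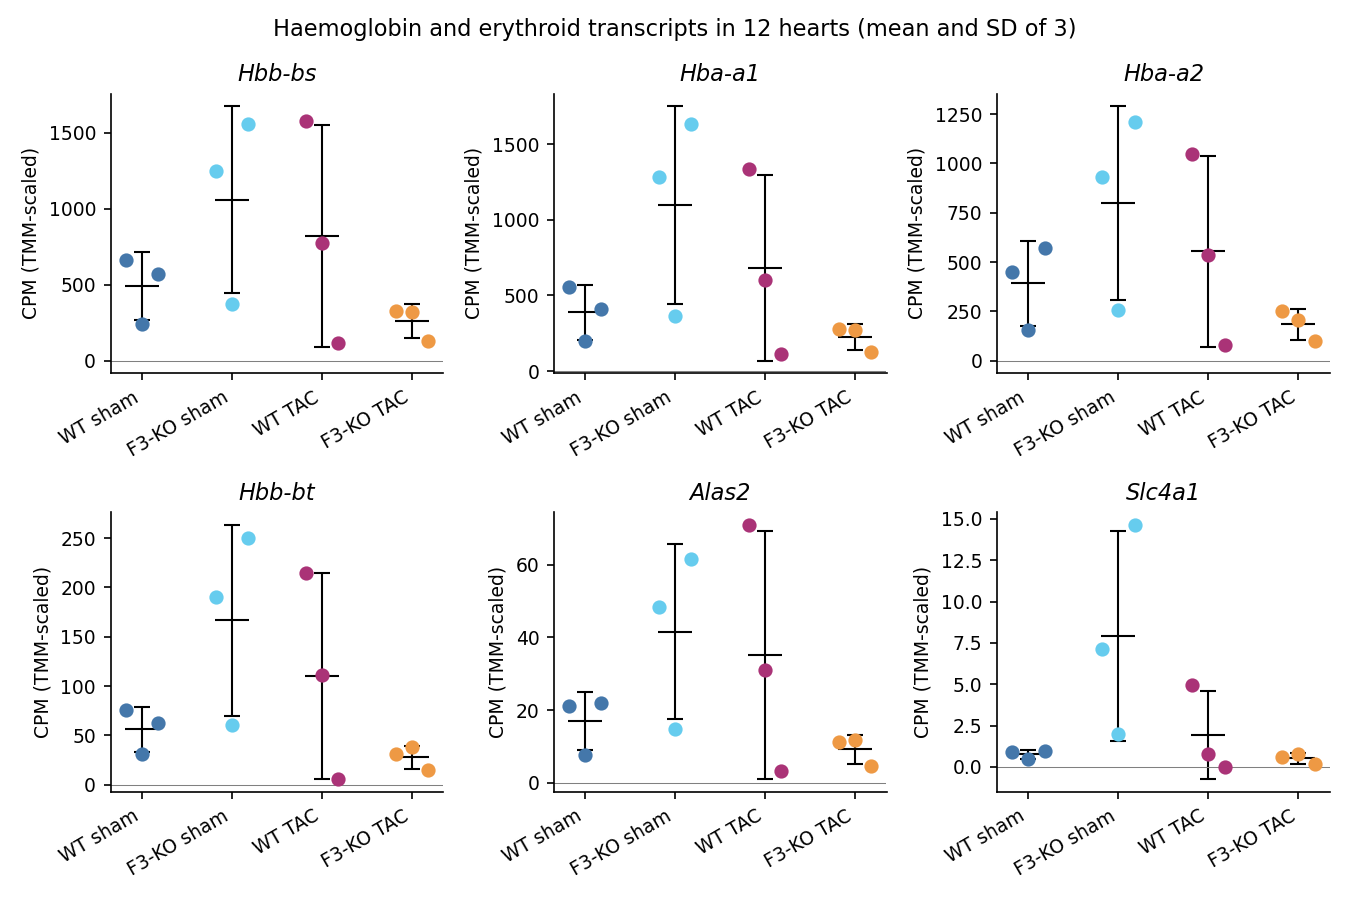
Each point is 1 heart, the vertical axis of each panel is the TMM-scaled CPM of the named gene on a linear scale, and the bars give the mean and SD of 3 hearts. In every panel but that of Slc4a1 the WT TAC hearts spread from near the top of the range to its bottom (Hbb-bs 1579 to 118 CPM). For Slc4a1 they reach 4.94 CPM beside a highest heart of 14.7 CPM, and in all panels the F3-KO TAC hearts lie under the F3-KO sham hearts.

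Set on a scale per length, with mean CPM over the 12 hearts divided by transcript length in kb, Hbb-bs stood at 1049, Hba-a2 at 871, Hba-a1 at 857, Hbb-bt at 128, Alas2 at 12.6 and Slc4a1 at 0.612. The order of Hba-a1 and Hba-a2 is not a result, since the copies share most of their sequence. Mb was at 25164 on the same scale. Its level varied 1.65-fold over the hearts, from 10211 to 16870 CPM, far less than that of any of the 6 genes.

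The remaining 4 genes were at or near 0. Hbb-b1 and Hbb-b2, the symbols of the adult beta genes of another mouse haplotype, reached 8.16 and 2.05 estimated counts at most in any heart. Hbb-bh2, a further gene of the beta cluster, and Hba-x, the embryonic zeta-like gene of the alpha cluster, reached 1.41 and 1 counts. Hearts with 0 counts could have held up to 3 counts by counting error, so no differences among groups were detectable for these genes.

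As a share of all counts, the 10 genes together took 0.0299% in WT TAC replicate 3 and 0.451% in F3-KO sham replicate 3, a 15.1-fold range. After sham surgery the share was 0.0657% to 0.174% in WT hearts and 0.107% to 0.451% in F3-KO hearts. After TAC it was 0.0299% to 0.436% in WT hearts and 0.0367% to 0.0980% in F3-KO hearts. In tissue RNA, fewer red cells in the sample and less RNA per red cell cannot be told apart. The spread within groups put the 6 genes among the most variable of the study. The SD of log2 CPM within groups was 1.18 to 1.58, against a median of 0.251 over all tested genes, and 97.0% to 98.7% of tested genes had a lower one. It was largest in WT TAC, at 1.80 to 2.79, and 0.638 to 0.793 in F3-KO TAC.

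The 6 genes were high in the same hearts and low in the same hearts. Over the 15 pairs of genes, Pearson's r of log2 CPM across the 12 hearts was 0.895 to 0.996 and Spearman's rho 0.902 to 0.993. The permutation p (two-sided, 100000 resamples, 1e-05 being the smallest they can give) was at most 2e-04 for every pair, also after Benjamini-Hochberg adjustment over the 15 pairs. With the 2 hearts farthest from the median left out, r was 0.855 to 0.995. With each group's mean subtracted, r was 0.940 to 0.996. The 5 lowest values of r all involved Slc4a1, the gene with the fewest counts, and the closest pair within groups was Hba-a1 and Hbb-bs, which share no stretch of 50 bases. These genes are thus not 6 separate witnesses of a group difference, and a count of 6 of 6 among them stands for little more than a single measure.

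The balance of alpha to beta transcripts was nearly constant although their amount was not. The ratio of alpha to beta counts was 1.29 to 1.57 over the 12 hearts, a 1.22-fold range. Alas2 was at 10.01 to 17.0 counts per 1000 globin counts, and both ends of that range were WT TAC hearts. Hba-a2 made up 40.4% to 47.3% of the alpha counts in 11 hearts and 58.2% in WT sham replicate 3 (95% exact Clopper-Pearson interval 57.3 to 59.0), which stood apart in this share only.

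The share of Hbb-bt in the beta counts differed more. After sham surgery it was 9.78% to 11.3% in WT hearts and 13.2% to 13.98% in F3-KO hearts. After TAC it was 4.44% to 12.5% in WT hearts and 8.55% to 10.5% in F3-KO hearts. All 3 F3-KO sham hearts lay above every other heart. The exact 95% intervals of F3-KO sham replicates 1 and 2 (12.69 to 13.71 and 13.03 to 14.97) overlapped that of WT TAC replicate 2 (11.87 to 13.18). The lowest value, 4.44% in WT TAC replicate 3, rested on 1240 beta counts, with an exact 95% interval of 3.36 to 5.74. Intervals cover counting error only, and reads moved between the copies may bear on this share, which was not tested.

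Slc4a1 relative to the globins was also highest in the F3-KO sham hearts. It was at 19.6, 18.9 and 31.5 counts per 10000 globin counts in F3-KO sham, with exact 95% intervals of 15.65 to 24.15, 11.97 to 28.3 and 26.8 to 36.8. In WT sham it was at 5.02, 7.36 and 6.05. In WT TAC it was at 11.8, 3.92 and 0, the last with an exact upper limit of 11.6, or 9.44 by the 3 counts that a count of 0 allows, and in F3-KO TAC at 6.82, 9.11 and 4.40. The F3-KO sham hearts thus lay above all 9 others, although the intervals of F3-KO sham replicates 1 and 2 both overlapped that of WT sham replicate 2 (2.39 to 17.2) and those of F3-KO TAC replicates 2 and 3. The 3 hearts with the most globin counts, 53272 in WT TAC replicate 1, 50818 in F3-KO sham replicate 3 and 43974 in F3-KO sham replicate 1, were among the 4 with the highest ratio. The part of the amount of globin in this ratio was not tested.

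**Figure D2:**
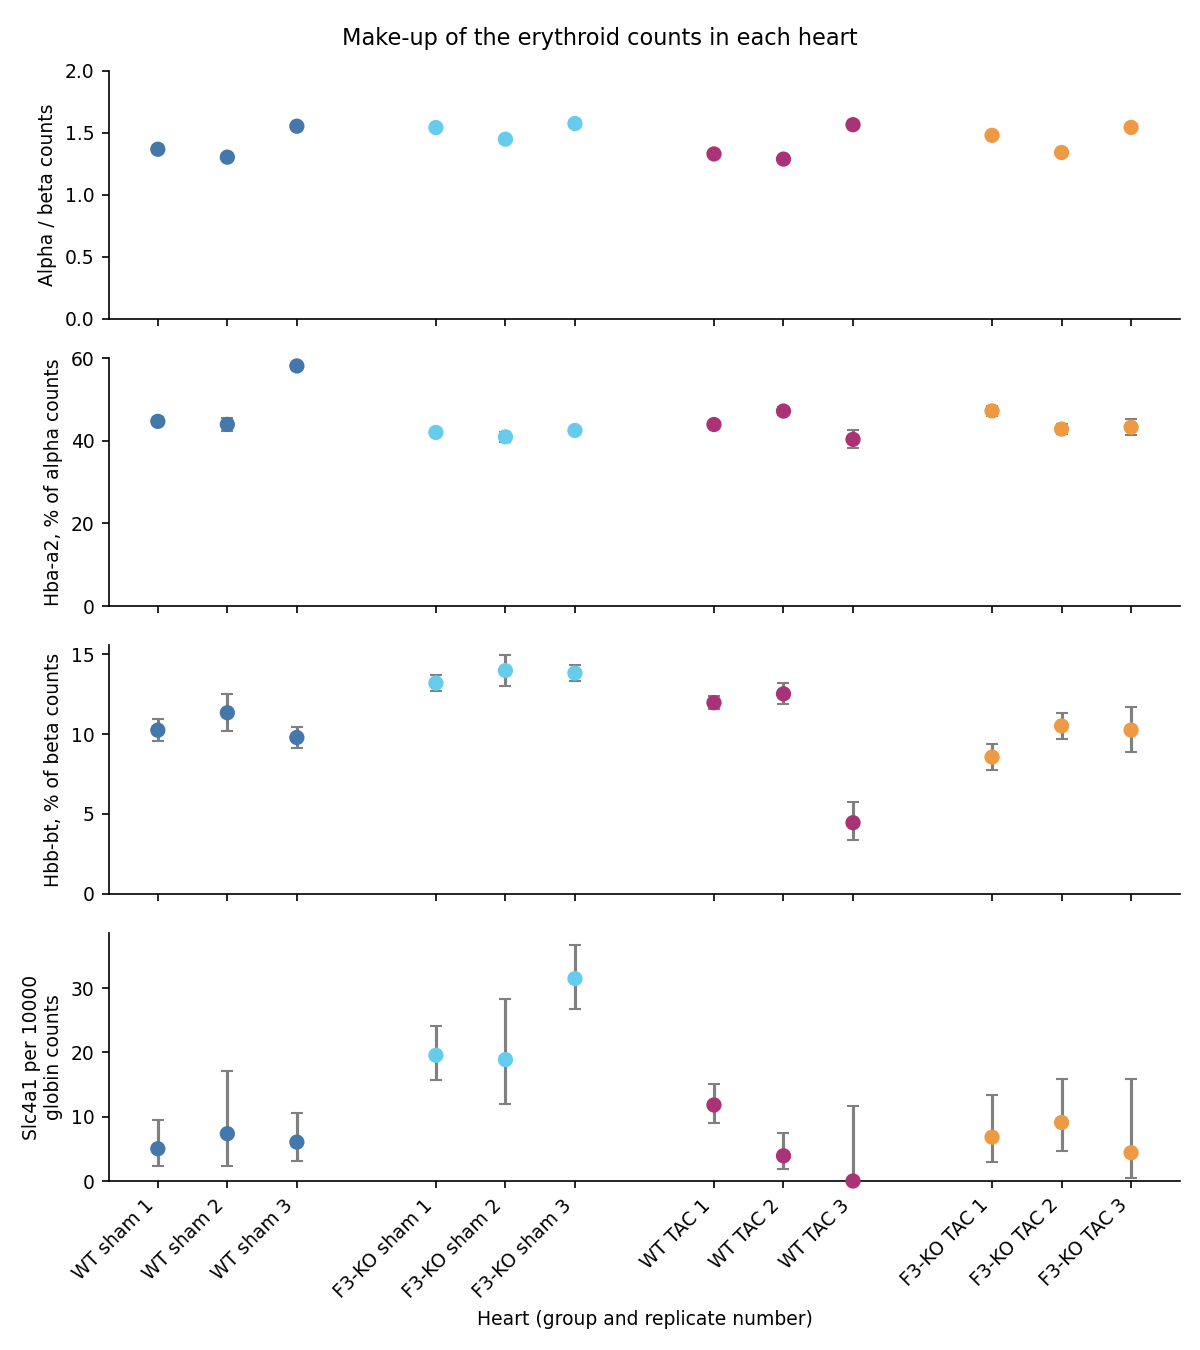
The 4 panels give, for each heart, the ratio of alpha to beta counts, the share of Hba-a2 in alpha counts, the share of Hbb-bt in beta counts and Slc4a1 per 10000 globin counts, with bars for the exact 95% interval where it is a share. The 3 F3-KO sham hearts have the highest Hbb-bt share (13.2% to 13.98%) and the highest Slc4a1 ratio (18.9 to 31.5), and WT sham replicate 3 stands apart in the Hba-a2 share.

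Group differences were fitted over all 14094 genes with edgeR's quasi-likelihood test and Benjamini-Hochberg adjustment. None of the 6 genes passed an adjusted p of 0.05 in any of 7 comparisons. The comparisons share groups and are not independent of each other. Differences are given as log2 fold changes, and the median over all tested genes was at most 0.03 in size in every comparison.

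Between F3-KO TAC and F3-KO sham, all 6 genes had lower fitted levels in F3-KO TAC. The log2 difference was -2.26 for Hba-a1 (SE 0.757), -2.11 for Hba-a2, -2.02 for Hbb-bs (SE 0.775), -2.58 for Hbb-bt, -2.16 for Alas2 and -3.89 for Slc4a1 (SE 1.11). The groups did not overlap for 6 of 6 genes, where 11.4% of all tested genes were lower in F3-KO TAC without overlap. The unadjusted p was under 0.05 for 6 of 6, at 0.00428 to 0.0230, where 6.47% of all tested genes were so called in this direction. The edgeR adjusted p was 0.175 to 0.224, and 0% of tested genes passed it, while 2412 genes had an unadjusted p under 0.05. DESeq2 called 442 genes in this comparison, among them Slc4a1 (log2 difference -3.96, DESeq2 adjusted p 0.0208) and none of the other 5. The number of the 6 genes with an unadjusted p under 0.05 was 3 without F3-KO sham replicate 1, without F3-KO sham replicate 3 or without F3-KO TAC replicate 3.

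Between WT TAC and WT sham, the 6 genes had fitted differences of 0.50 (Hba-a2) to 1.33 (Slc4a1), with edgeR adjusted p of 0.849 to 0.937. None had an unadjusted p under 0.05, which 885 genes had, and 0% of tested genes passed the adjusted p. DESeq2 called 26 genes and none of the 6. The 95% interval for Hbb-bs ran from -0.89 to 2.38, so that neither a lower nor a several-fold higher level was outside it. The fitted differences depended on single WT TAC hearts. Without replicate 1 they were -0.14 for Hbb-bs, -0.12 for Hba-a1, -0.35 for Hba-a2 and -0.89 for Slc4a1. For Hbb-bt and Alas2 they were still positive, at 0.06 and 0.03. Without replicate 3 they were 1.02 (Hba-a2) to 1.89 (Slc4a1), and 2 of the 6 genes had an unadjusted edgeR p under 0.05.

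Between F3-KO sham and WT sham, the fitted differences were 1.02 (Hba-a2) to 3.34 (Slc4a1), with edgeR adjusted p of 0.544 to 0.998. Slc4a1 was the 1 gene of the 6 with an unadjusted p under 0.05 (0.00934), where 2.81% of tested genes were so called as higher. It was also the 1 gene whose groups did not overlap, as for 6.74% of tested genes in this direction. The adjusted test called 0.106% of tested genes, 849 had an unadjusted p under 0.05, and DESeq2 called 102, none of the 6 among them. The 95% interval for Slc4a1 was 0.99 to 5.69, and for Hbb-bs it was -0.54 to 2.76. With only the 6 libraries compared, or without WT TAC replicate 3, 4 of the 6 genes had an unadjusted p under 0.05. Under the other alternatives 0 to 2 had one.

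Between F3-KO TAC and WT TAC, the fitted differences were -1.98 (Hbb-bt) to -1.58 (Hba-a2), with edgeR adjusted p of 0.476 to 0.566. Hbb-bt (0.0439) and Alas2 (0.0378) had an unadjusted p under 0.05 in this edgeR test, 2 of 6 genes, where 4.16% of tested genes were so called as lower. The groups overlapped for every one of the 6, since WT TAC replicate 3 lay under the F3-KO TAC hearts. The adjusted test called 0.078% of tested genes, 1410 had an unadjusted p under 0.05, and DESeq2 called 94 genes and none of the 6. Without WT TAC replicate 1 the differences were -1.06 for Hbb-bt, -0.89 for Alas2, -0.65 for Hba-a1 and 0.34 for Slc4a1, and none of the 6 had an unadjusted p under 0.05. The same count of 0 was found without WT TAC replicate 2, without any 1 of the 3 F3-KO TAC hearts, with the replicate number as a block, by limma-trend and with only the 6 libraries compared. Without WT TAC replicate 3 all 6 had one.

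The difference between the genotypes in the response to TAC was -2.61 (Hba-a2) to -5.22 (Slc4a1) on the log2 scale. The unadjusted p was 0.00537 to 0.0379 for 6 of 6 genes, where 2.18% of tested genes were so called as lower. The edgeR adjusted p was 0.954 for each, 0% of tested genes passed it, and 632 had an unadjusted p under 0.05. DESeq2 called 6 genes and none of these. Without WT TAC replicate 1 the difference was -1.88 for Hbb-bs and -3.00 for Slc4a1, and 2 of 6 genes had an unadjusted p under 0.05, as was also the count by limma-trend.

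**Figure D3:**
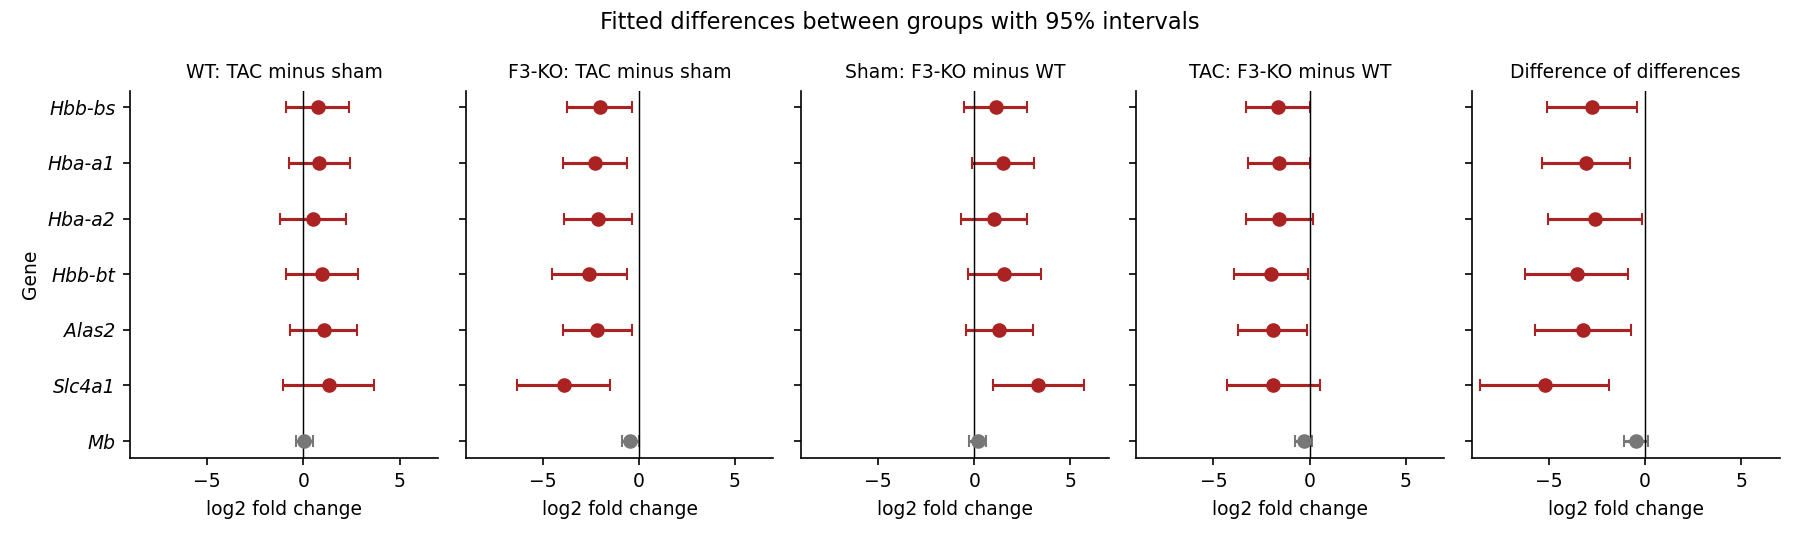
Points are fitted log2 fold changes from edgeR and bars their 95% intervals for the 6 genes and, in grey, Mb, in 5 comparisons of 3 hearts a group. The intervals lie to the left of 0 for all 6 genes in F3-KO TAC minus F3-KO sham and in the difference of differences, and none of these values passed an adjusted p of 0.05.

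Pooled over both genotypes, TAC against sham gave -0.55 (Alas2) to -1.28 (Slc4a1), with edgeR adjusted p of 0.402 to 0.639, where 0.078% of tested genes were called. Pooled over both surgeries, F3-KO against WT gave -0.31 (Alas2) to 0.73 (Slc4a1), with edgeR adjusted p of 0.774 to 0.988, where 0.412% were called. No gene of the 6 had an unadjusted p under 0.05 in either, which 2513 and 1425 tested genes had, and DESeq2 called 613 and 217 genes and none of the 6.

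Genes whose levels were most like those of the 6 were sought among all tested genes of at least 1 CPM on average, by Pearson's r with the mean log2 CPM of the 6 after each group's mean was subtracted. Among the 10 closest were Scarb1 (r 0.941), Tent5c (0.928), Ankrd27 (0.922), Galns (0.900), Bad (0.898), Isg20 (0.898), Kmt5c (0.889) and Cnnm2 (0.885). Without that subtraction, r over the 12 hearts was 0.938 for Tent5c and 0.787 for Isg20, and 0.182 to 0.554 for the other 6 of these 8 genes. By Spearman's rho, 3 of the 10, Bad among them, were again among the closest 10. For Scarb1, a lipoprotein receptor, r was 0.941 within groups and 0.554 over all hearts.

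Tent5c, a poly(A) polymerase expressed in late erythroid cells, was at 3.69, 2.84 and 3.02 CPM in WT sham and 8.73, 4.42 and 9.50 CPM in F3-KO sham. After TAC it was at 8.31, 3.21 and 0.800 CPM in WT hearts and 3.19, 2.06 and 2.07 CPM in F3-KO hearts. WT TAC replicate 1 and F3-KO sham replicates 1 and 3 were the highest hearts for Tent5c and WT TAC replicate 3 was the lowest, as for the globins. Isg20, an exonuclease of single-stranded RNA, was at 5.44, 3.76 and 4.42 CPM in WT sham and 10.7, 3.72 and 9.52 CPM in F3-KO sham. After TAC it was at 10.3, 5.81 and 3.599 CPM in WT hearts and 7.74, 6.44 and 4.28 CPM in F3-KO hearts. Its 3 highest hearts and its lowest heart were F3-KO sham replicates 1 and 3, WT TAC replicate 1 and WT TAC replicate 3, the same as for Tent5c.

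**Figure D4:**
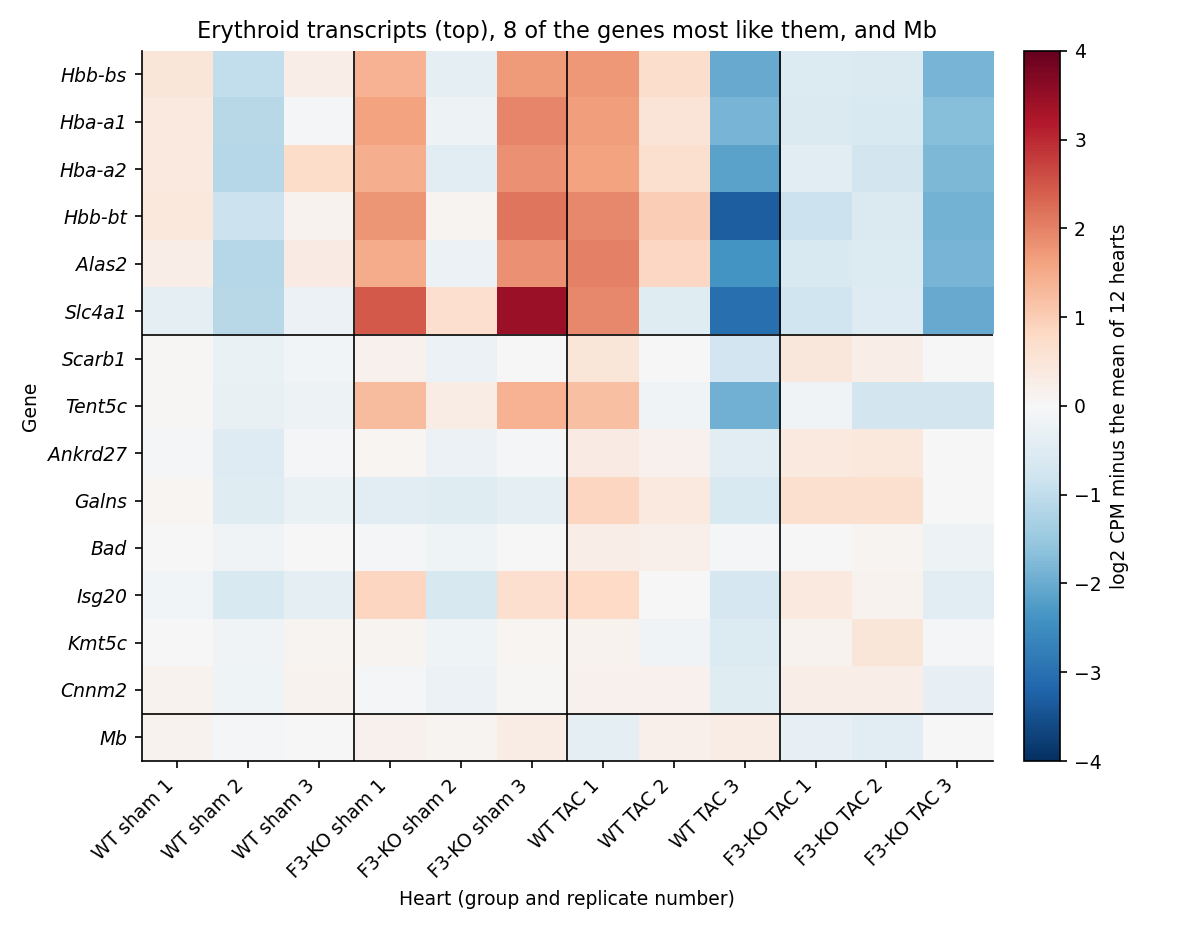
Rows are the 6 erythroid genes, 8 of the 10 genes most like them and Mb, columns are the 12 hearts, and colour gives log2 CPM minus the mean of that gene over the 12 hearts. Tent5c has the pattern of the 6 genes over all hearts (r 0.938), whereas Mb varied 1.65-fold.

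Other genes of the red cell lineage were taken from lists. Of the late red cell transcripts, 12 passed the filter, and none passed the adjusted edgeR test in any of the 7 comparisons. In F3-KO TAC against F3-KO sham, all 12 had a lower fitted level, as had 47.1% of all tested genes, with a median of -0.33 against 0.02 over all tested genes. An unadjusted p under 0.05 was found for 5 of the 12, beside 6.47% of all tested genes as lower. Among these were Tent5c (-1.63), Bpgm (-0.66), which encodes bisphosphoglycerate mutase, Prdx2 (-0.40), a peroxide-reducing enzyme abundant in red cells, and Car2 (-0.93), a carbonic anhydrase. Bnip3l, which directs the clearance of mitochondria in reticulocytes, was at -0.01. Many other cells also express Prdx2 and Bnip3l. In F3-KO sham against WT sham all 12 had a higher fitted level, as had 49.2% of all tested genes, with a median of 0.17 and none at an unadjusted p under 0.05. In the difference of differences all 12 were negative, as were 45.8% of all tested genes, with a median of -0.47, and 5 had an unadjusted p under 0.05, beside 2.18% of all tested genes as lower. The genes named in this and the following paragraphs for their unadjusted p were picked out after their values were seen.

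Haem synthesis genes beside Alas2 numbered 14, of which none passed the adjusted test. In F3-KO TAC against F3-KO sham their median was -0.23 and 3 of 14 had an unadjusted p under 0.05 as lower, beside 6.47% of all tested genes. These were Alad (-0.62), Urod (-0.48) and Slc25a39 (-0.34). Alas1, the form of the first enzyme used outside red cells, was at 240.1 CPM on average, above Alas2 at 25.7, and Fech, which inserts iron into the ring, at 163 CPM. Their differences in this comparison were -0.28 and -0.30, beside -2.16 for Alas2.

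Membrane and skeleton genes gave 10 tested genes with a median of -0.25 in the same comparison. Of these 10, 1 had an unadjusted p under 0.05 as lower, beside 6.47% of all tested genes. Ank1 and Aqp1, at 404 and 402 CPM on average, were at -0.29 and -0.52. Both are also expressed outside red cells, Aqp1 in endothelium. Erythroid regulators gave 6 tested genes with a median of -0.07, among them Lmo2 (0.11) and Zfpm1 (-0.08). Trim10, a gene of late erythroid cells, had 0 to 42 counts over the 12 hearts, with 3 hearts at 0, too few for a fold change to be read. It was the 1 regulator of 6 with an unadjusted p under 0.05 in this comparison (edgeR p 0.00377, adjusted p 0.175), as lower, beside 6.47% of all tested genes, and in the difference of differences (p 0.00548, adjusted p 0.954).

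Genes of nucleated red cell precursors were near 0. Klf1 and Gata1, the main transcription factors of the lineage, had 0 to 4 counts each in any heart, Hemgn 0 to 1, Rhag 0 to 2.13, Kel 0 to 3 and Car1 0 to 1. Epb42, a late membrane skeleton gene, reached 21.75 counts. At this depth, group differences in these genes were not detectable.

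Genes that clear haemoglobin and handle iron gave 12 tested genes, and none passed the adjusted test. In F3-KO TAC against F3-KO sham their median was 0.13, with 3 of 12 at an unadjusted p under 0.05 as higher, beside 10.6% of all tested genes, and none as lower. These were Hp (1.99), which encodes haptoglobin, the plasma protein that binds free haemoglobin, Hmox1 (0.72), the enzyme that breaks down haem, and Lrp1 (0.77), a receptor that takes up haem bound to haemopexin. Fth1 and Ftl1, the ferritin chains, were at 2158 and 405 CPM on average and at -0.23 and 0.23. Mb was at -0.44 (edgeR adjusted p 0.295), and Cygb, a globin of connective tissue cells, at 0.32.

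The summed neutrophil markers were ordered differently from the erythroid transcripts over the hearts. The platelet and T cell sums had that order in some groups only, and single platelet genes differed among themselves. The summed level of the neutrophil list was 9.63 to 58.5 CPM by library total, with its highest value in WT sham replicate 2, a heart low in erythroid transcripts (0.0657% of counts). The platelet list summed to 13.1 to 29.5 CPM and the T cell list to 2.35 to 12.4 CPM. The platelet sum had the order of the erythroid share within both F3-KO groups, and the T cell sum within F3-KO TAC. Neither had it within the WT groups. For single platelet genes, Pearson's r with the mean log2 CPM of the 6 erythroid genes was taken over the 12 hearts. It was 0.785 for Itga2b, 0.680 for Gp9 and 0.654 for Tubb1, and 0.178 for Gp1bb, -0.101 for Pf4 and -0.400 for Gp1ba. Gp9 and Tubb1 were at 0.573 and 0.769 CPM on average. S100a9, a granule protein of neutrophils, was at 5.18 CPM on average, Csf3r at 4.38, Pf4, a platelet chemokine, at 11.9, Gp1ba at 2.64, Cd4 at 1.67 and Cd8a at 1.13. None of the 6 B cell markers in the table passed the filter. None of the tested genes of these lists passed the adjusted edgeR test, and in F3-KO TAC against F3-KO sham 1 neutrophil gene (Ltf, -2.42) and 1 platelet gene (Gp9, -2.29) had an unadjusted p under 0.05. The endothelial list summed to 801 CPM in WT TAC replicate 3 and 828 in F3-KO TAC replicate 3, its lowest values. These were also the hearts lowest in erythroid transcripts, while in the other 10 hearts the list summed to 1003 to 1609 CPM. Its highest value, 1609 CPM, was in F3-KO TAC replicate 1, where the erythroid share was 0.0980%, the highest of that group. F3-KO sham replicate 3, with the highest erythroid share (0.451%), was at 1034 CPM. In replicates 1 to 3 the sum was 1355, 1166 and 801 CPM in WT TAC and 1609, 1275 and 828 CPM in F3-KO TAC. That was the order of the erythroid share in both TAC groups, which was not so in the sham groups. Within groups, r of single endothelial genes with the mean of the 6 ran from -0.432 (Tek) to 0.786 (Cdh5). The part of vessel content in the erythroid levels was not tested.

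Markers of the heart's own cells also differed in summed level between the F3-KO groups, although none of these genes passed the adjusted test. The ventricular muscle list summed to 84331 to 93893 CPM in F3-KO sham and 57040 to 71265 CPM in F3-KO TAC, without overlap, with Myh6, the adult myosin heavy chain, at -0.96 (edgeR adjusted p 0.182). The fibroblast and matrix list summed to 1039 to 1429 CPM in F3-KO sham and 1539 to 7805 CPM in F3-KO TAC, with Col3a1, a fibrillar collagen, at 2.49 (edgeR adjusted p 0.208) and Dcn at 0.61. In WT TAC it was 3391, 1492 and 1368 CPM in replicates 1 to 3, the same order as the erythroid share (0.436%, 0.200% and 0.0299%). In F3-KO TAC replicates 1 to 3 the matrix sum was 4417, 7805 and 1539 CPM, beside erythroid shares of 0.0980%, 0.0931% and 0.0367%. Replicate 3 was thus lowest in both, while replicates 1 and 2, with shares close to each other, were in the reverse order. In both sham groups the heart with the highest matrix sum, replicate 2 (1619 CPM in WT and 1429 CPM in F3-KO), had the lowest erythroid share. Within groups, r of single genes of this list with the mean log2 CPM of the erythroid genes ran from -0.529 (Dcn) to 0.779 (Col3a1). Of the atrial markers, Kcna5 was at 53.0 CPM and Tbx5 at 35.8 CPM on average, and the list summed to 72.7 to 125 CPM over the hearts. The part of the tissue make-up in the erythroid levels was not tested.

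**Figure D5:**
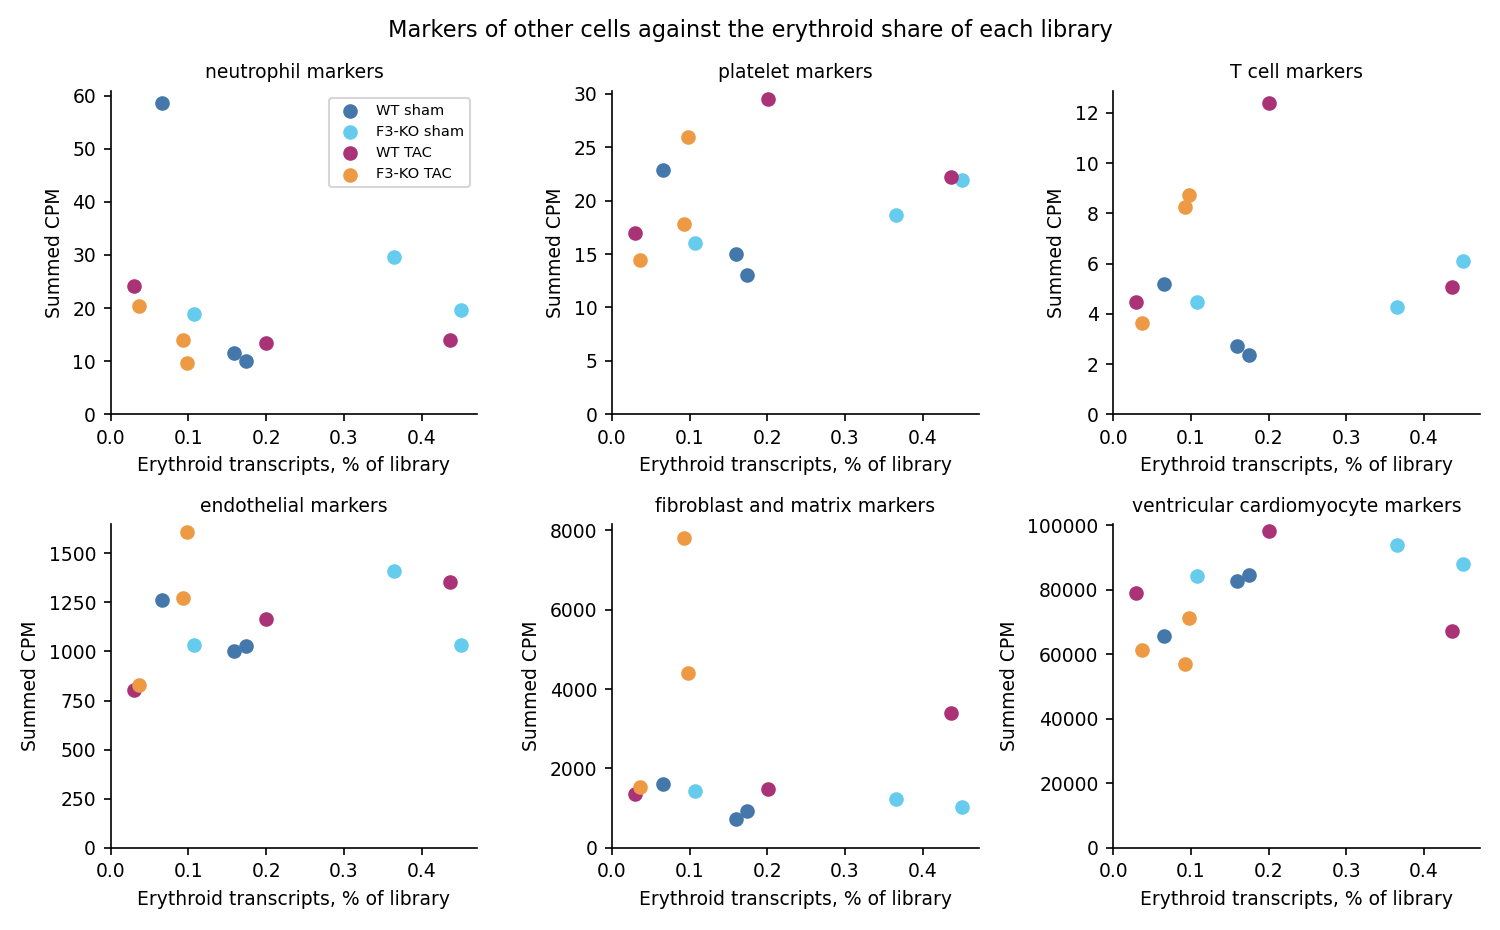
Each point is 1 heart, with the share of the library taken by the 10 erythroid genes on the horizontal axis and the summed CPM of a marker list on the vertical axis, both linear. The highest neutrophil sum (58.5 CPM) is in a heart of low erythroid share (0.0657%). The 2 hearts of lowest erythroid share (0.0299% and 0.0367%) have the lowest endothelial sums (801 and 828 CPM). The highest endothelial sum (1609 CPM) is in a heart with a share of 0.0980%, the highest share of the F3-KO TAC group.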

How the data were processed

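Total RNA of 12 heart samples, 3 per group as the labels give them, was sequenced by the study. The authors deposited estimated counts per gene: 40.62% of all values were not whole, and they were rounded here before testing. The submitters' processing notes name HISAT2 2.0.4, STAR 2.3.0 and DESeq2 and the builds mm8 and mm9, and the methods name SOAPnuke for read filtering. The counting tool and its handling of strand and of reads that match several copies are not given in the sources used here. The separate tables of 11 hearts were identical to the joint table, and the table of WT sham replicate 2, which breaks off, was not used. No columns of the authors' own comparisons were used.

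In R 4.3.3, edgeR 4.0.16 (TMM, filterByExpr with a minimum count of 10, glmQLFit and glmQLFTest, all 12 hearts in 1 model) tested 14094 genes, with Benjamini-Hochberg adjustment over all of them and a threshold of 0.05. The procedure was tested on simulated data. Alternatives were DESeq2 1.42.0, limma 3.58.1, other scalings and filters, a replicate block and each heart left out. CPM are TMM-scaled, and log2 CPM used a prior count of 2. Marker sums and shares use library totals. Intervals of shares are exact binomial (Clopper-Pearson) on rounded counts, at 95%, and a count of 0 allows up to 3 counts.

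The members and lists were chosen with earlier results of these data known. Named were all members, Fabp3, Mb, the 10 genes most alike, and per list up to 4 genes that passed the test or otherwise the 2 of highest mean CPM. Some genes that this rule names are not reported here. Promoters and transcripts come from RefSeq (GRCm38.p6) and GENCODE M21, and no coordinate of the counting annotation was used.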

Additional observations from a re-analysis of the deposited data

How the results depend on the processing

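The count of erythroid genes called at an adjusted p of 0.05 was 0 in each of the 7 comparisons by edgeR, and stayed 0 in 136 of 137 alternative fits. The exception was DESeq2 in F3-KO TAC against F3-KO sham, with 1 gene, Slc4a1. Leaving out each heart in turn gave counts of 0 to 0. The direction of a fold change turned under 18 alternatives and stayed, with no change in the call, under 796. It also stayed in the 1 fit by DESeq2 that called Slc4a1. The cause of the turns was not tested. By limma-trend it turned for Hbb-bt in WT TAC against WT sham (-0.035) and, in F3-KO against WT pooled over surgery, for Hbb-bt (0.23), Alas2 (0.016) and Hba-a1 (0.15). Leaving out 1 heart gave ranges in WT TAC against WT sham of -0.89 to 1.89 (Slc4a1), -0.35 to 1.02 (Hba-a2), -0.12 to 1.32 (Hba-a1) and -0.14 to 1.26 (Hbb-bs), and in F3-KO TAC against WT TAC of -2.46 to 0.34 (Slc4a1). In the pooled genotype comparison the ranges were -0.49 to 0.25 (Hbb-bt), -0.59 to 0.20 (Alas2), -0.55 to 0.15 (Hba-a2), -0.30 to 0.42 (Hba-a1) and -0.54 to 0.17 (Hbb-bs). Each turn came without WT TAC replicate 1, and for Hba-a1 in the pooled comparison also without WT sham replicate 1 (0.13), F3-KO sham replicate 2 (0.15) or F3-KO TAC replicate 3 (0.10).

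Deviations of same-numbered hearts correlated at -0.141 to 0.362, over 0.1 in 4 of 18 pairs. The value of 0.362 was for replicate 3 of WT TAC and of F3-KO TAC. These were the hearts of lowest erythroid share (0.0299% and 0.0367%). Whether hearts of the same number were handled together was not tested. With the replicate number as a block, the count of called erythroid genes was 0 in every comparison, and Hba-a1 turned to 0.092 in the pooled genotype comparison.

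With 3 hearts a group and a within-group SD of log2 CPM above 1 for every erythroid gene, the precision was low, and lower still for Slc4a1 with its few counts.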
